A study of Homo sapiens with 6 samples.

Results

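The ADAM, ADAMTS and ADAMTSL genes were examined in LX-2, an immortalised human hepatic stellate cell line. Members were taken by gene name, as every row of the deposited table named ADAM, ADAMTS or ADAMTSL followed by digits only. This gave 36 genes of 27830, of which 15 were ADAM, 17 ADAMTS and 4 ADAMTSL genes. RNA sequencing compared 3 samples given TGF-β1 at 10 ng/ml for 24 h with 3 untreated control samples, to find genes that change when the cells are activated. Per the labels the cells were grown in DMEM with 10% fetal bovine serum and the cytokine was given in serum-free medium, and the medium of the controls during that time is not stated. Serum and TGF-β1 therefore cannot be told apart. Whether replicates came from separate cultures is not stated either, and p-values may therefore rest on technical spread alone.

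ADAM proteases are membrane-anchored enzymes that cut the outer parts of cell-surface proteins, a step called shedding that releases growth factors and starts Notch signalling. ADAMTS proteases are their secreted relatives. They carry thrombospondin repeats, bind to the matrix and cut proteoglycans, the amino-terminal propeptides of fibrillar procollagens or von Willebrand factor. ADAMTS-like proteins have the repeats but no protease domain and are found with fibrillin microfibrils. In the liver, activated stellate cells are the main source of fibrous matrix, and TGF-β1 is the classical signal for that activation.

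Library totals ran from 13866957 to 17694675 counts. Of the stellate and fibroblast markers, COL1A1, VIM, THY1 and PDGFRB were well above the detection floor of 3 counts. LRAT, in contrast, had at most 2 counts in a library, and DES averaged 0.105 CPM with TGF-β1 and 0.165 CPM in the controls. CPM are counts scaled to the normalised library size, or to the library total for marker sums. COL1A2 had 29 to 48 counts, PDGFRA 6 to 12 and RGS5 6 to 13, and ACTA2, the smooth muscle actin of activated stellate cells, averaged 4.77 CPM with TGF-β1 and 5.002 CPM in the controls (edgeR adjusted p = 0.898). The 13 markers summed to 3068 to 3525 CPM with TGF-β1 and 2933 to 3020 CPM in the controls, most of it COL1A1 and VIM. COL1A1 averaged 1770 CPM with TGF-β1 and 1331 CPM in the controls, and VIM 1227 and 1418 CPM. Of the 11 tested markers, 3 had a positive and 8 a negative log2 fold change. Hepatocyte markers summed to 57.2 to 72.5 CPM with TGF-β1 and 50.3 to 54.1 CPM in the controls over 4 genes found of 7 listed, nearly all of it SERPINA1 and CPS1. Leukocyte markers summed to 26.1 to 29.2 CPM with TGF-β1 and 29.02 to 36.4 CPM in the controls over 6 genes found of 8. Endothelial markers summed to 430 to 449 CPM with TGF-β1 and 440 to 452 CPM in the controls over 8 of 8, nearly all of it TIE1 and FLT1. Epithelial markers summed to 498 to 672 CPM with TGF-β1 and 630 to 737 CPM in the controls over 6 of 7, mostly KRT8, KRT18 and SOX9. Markers of the other cell types were not uniformly absent. APOA1, CYP3A4, MARCO and EPCAM had at most 1 count in a library and CDH5 at most 4. The leukocyte markers CD14, ITGAX and CSF1R had 150 to 301, 148 to 231 and 63 to 116 counts. The endothelial markers PECAM1, KDR and VWF had 29 to 58, 16 to 30 and 9 to 21 counts, and the epithelial marker KRT7 had 18 to 38. The sums of stellate and of hepatocyte markers did not overlap between the groups, and the part of other cell types in the results was not tested. In bulk RNA, fewer cells of a type and less RNA per cell cannot be told apart.

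The libraries also differed in the levels of AT-rich transcripts. Over 1440 genes with a transcript GC content of at most 40%, the median log2 deviation from the gene mean was 0.69, 0.23 and -0.19 in TGF-β1 replicates 1, 2 and 3, and -0.10, -0.46 and -0.12 in control replicates 1, 2 and 3. The 2 highest values thus belonged to TGF-β1 libraries and the lowest to a control. Whether this trend came from the treatment or from the preparation of the libraries was not tested, and removing it takes out both. Fold changes are therefore given from edgeR on the counts and, where it matters, with this GC trend removed from each library. Log2 fold changes are TGF-β1 over control, with their standard error (SE).

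Part of the family was expressed in LX-2 cells, mostly at modest levels. With at least 1 FPKM (read fragments scaled to gene length and library depth) on average over the 6 libraries as the criterion, 15 of 36 members were expressed, made up of 7 ADAM, 5 ADAMTS and 3 ADAMTSL genes. ADAMTSL4 lay just inside that threshold at 1.06 FPKM and ADAM8 just outside it at 0.955 FPKM. Another 12 members were below 1 FPKM but passed the count filter of the test. The 9 that did not pass had at most 15 counts in any library. They were ADAM20, ADAM21, ADAM28, ADAM32, ADAM33, ADAMTS17, ADAMTS19, ADAMTS20 and ADAMTSL3.

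Protease levels were set side by side per length, in FPKM. In the deposited values the highest level was that of ADAMTS12, a matrix protease that cuts cartilage oligomeric matrix protein, with 35.9 ± 4.46 FPKM with TGF-β1 and 30.3 ± 3.25 FPKM in controls (SD, n = 3 each). ADAM15, a membrane protease whose disintegrin domain binds integrins, had 22.2 ± 3.28 FPKM with TGF-β1 and 27.8 ± 2.93 FPKM in controls. Next came ADAM19, a sheddase of neuregulins, with 19.4 ± 0.982 FPKM with TGF-β1 and 12.6 ± 0.476 FPKM in controls. The ranges of neighbours in this order overlapped over the 6 libraries, ADAMTS12 with ADAM15 and ADAM15 with ADAM19. ADAM9, a broadly expressed sheddase, had 15.5 ± 5.14 FPKM with TGF-β1 and 13.3 ± 2.09 FPKM in controls, a range that overlapped that of ADAM19, and with the exon length of GENCODE 29 it would come first, at a mean of 37.0 FPKM. ADAMTS7, the closest relative of ADAMTS12, followed with 9.94 ± 0.352 FPKM with TGF-β1 and 8.84 ± 0.598 FPKM in controls. These 5 genes held 66.0% to 71.0% of the summed FPKM of the family in TGF-β1 libraries and 66.7% to 70.1% in control libraries.

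**Figure D1:**
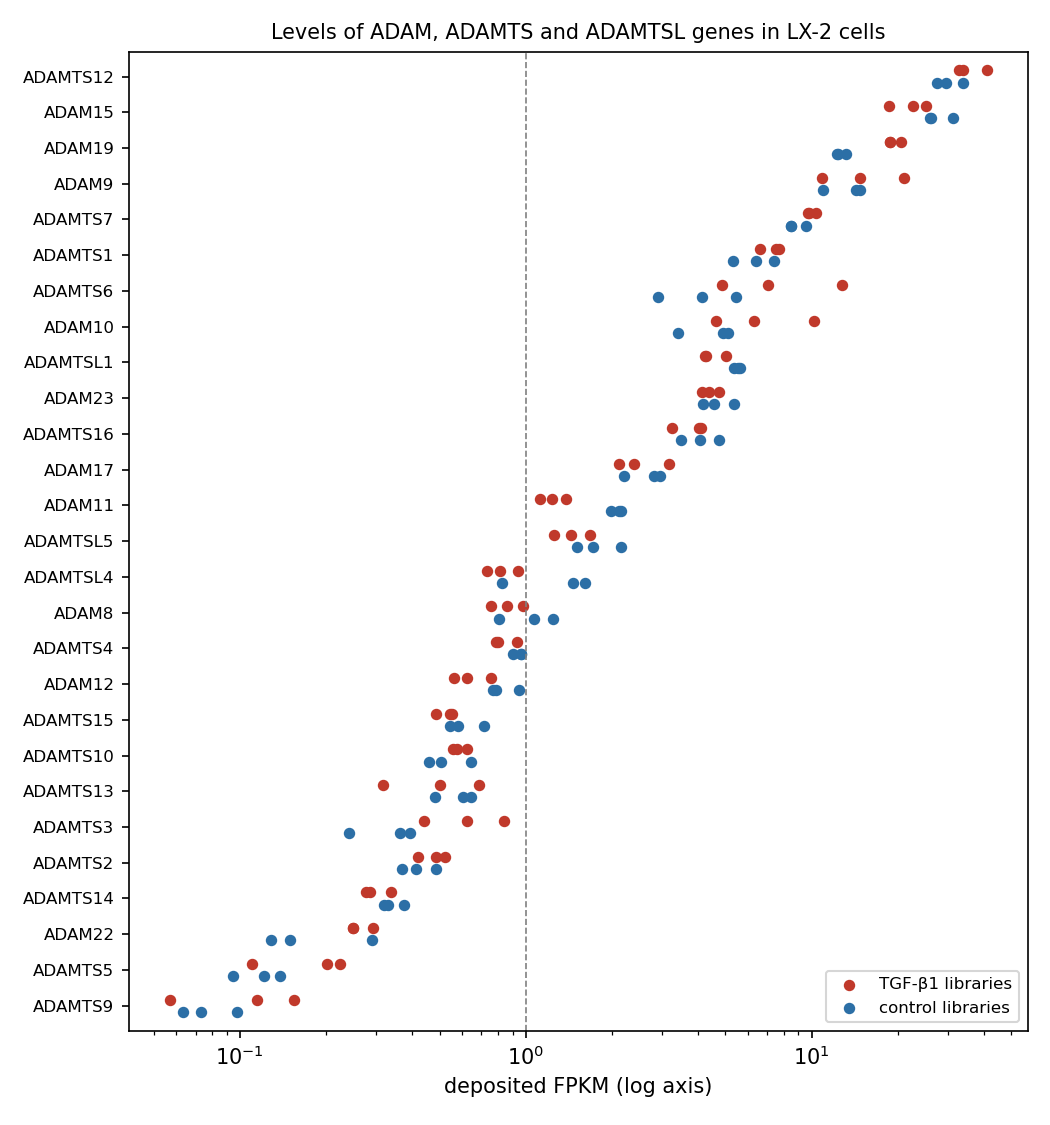
Deposited FPKM (log axis) of the 27 members that passed the count filter, ordered by their mean, with 1 point per library (red, TGF-β1; blue, control; n = 3 each). The dashed line marks 1 FPKM; 15 members have a mean at or above it, from ADAMTS12 at the top to ADAMTSL4.

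The main question was which members differ after TGF-β1. By edgeR's quasi-likelihood test, none of the 27 tested members passed an adjusted p of 0.05, against a background of 0.366% of all 14463 tested genes. At an unadjusted p under 0.05, 8 members (29.6%) passed, against 15.6% of all tested genes. On the higher side these were ADAM19, ADAMTS6, ADAMTS3 and ADAM10, 14.8% of the members against 11.1% of all tested genes. On the lower side they were ADAM11, ADAM15, ADAMTSL1 and ADAMTSL4, 14.8% of the members against 4.49% of all tested genes. DESeq2 called 2 members, and limma called 0 on voom values and 0 on log2 FPKM. The median log2 fold change was -0.07 over the 27 members and 0.01 over all tested genes. The CPM of the groups did not overlap in 6 members (22.2%), against 17.1% of all tested genes. ADAM19 and ADAMTS3 had all TGF-β1 libraries higher (background 7.93%), and ADAM15, ADAMTSL1, ADAM11 and ADAM12 had all of them lower (background 9.12%). No tested member had a fold change of 1 or more, in either direction, on the log2 scale.

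With the GC trend removed, edgeR called 2 of the 27 members, ADAM19 and ADAM11, against 3.68% of all tested genes. ADAM19 was higher (background 1.87% of genes called higher) and ADAM11 was lower (background 1.8% called lower). At an unadjusted p under 0.05 in this fit 13 members (48.1%) passed, against 20.8% of all tested genes. Of these 6 were higher (22.2%, background 10.2%) and 7 lower (25.9%, background 10.6%). ADAM19 and ADAM11 are also the 2 members that DESeq2 called, against 4.25% of all tested genes. The removal moved single members by up to 0.50 on the log2 scale and changed the sign of 1 member, ADAM9. The median over the 27 members was -0.07 and that over all tested genes -0.01 after it.

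**Figure D2:**
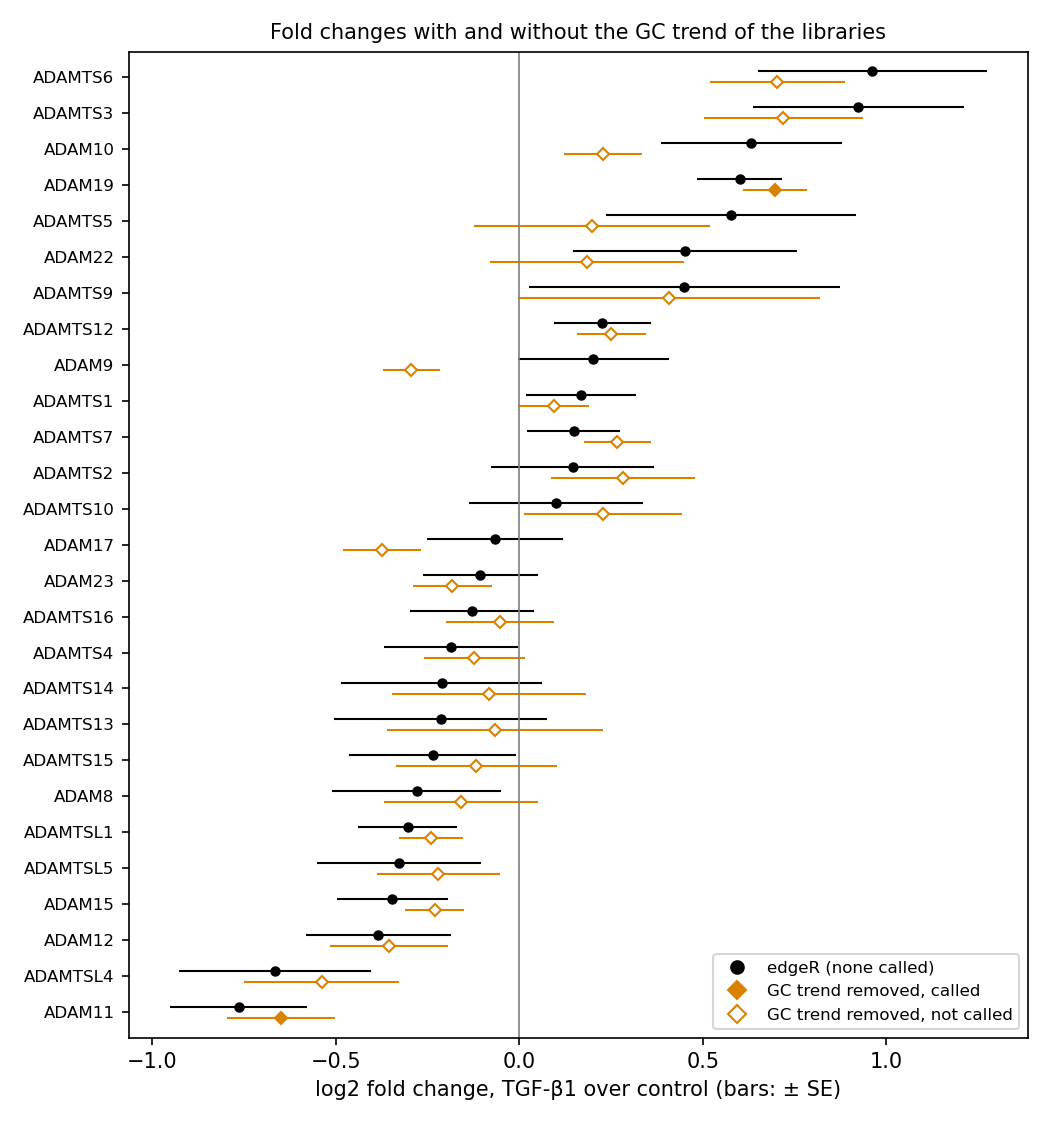
Log2 fold change (TGF-β1 over control, bars ± SE, n = 3 libraries per group) of the 27 tested members, from edgeR (black circles) and with the GC trend removed (orange diamonds, filled where called at an adjusted p under 0.05). ADAM19 at 0.70 and ADAM11 at -0.65 are the only filled diamonds, and ADAM9 is on the positive side before and on the negative side after the removal.

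ADAM19 showed an even difference between the groups. It encodes meltrin beta, an active membrane protease, and its GRCh38 position is chromosome 5, bases 157395534 to 157575775, minus strand. Its CPM was 144, 154 and 148 in the TGF-β1 libraries, against 101, 98.4 and 94.2 in the control libraries. All TGF-β1 libraries were higher than all control libraries, and the spread within each group was small. The mean was 149 ± 5.31 CPM with TGF-β1 and 97.9 ± 3.50 CPM in controls (SD, n = 3 each), 1.52-fold higher (log2 0.60 ± 0.12 SE, 95% interval 0.35 to 0.85). By edgeR this just missed the threshold (adjusted p = 0.0558). With the GC trend removed the gene rose 1.62-fold (edgeR adjusted p = 0.000665), and that call held with each library left out in turn (edgeR adjusted p = 0.000209 to 0.0104). Without that removal the adjusted p of edgeR was 0.00329 when TGF-β1 replicate 1 was left out and 0.366 when TGF-β1 replicate 2 was. DESeq2 gave an adjusted p of 0.00309. Of the exon bases of ADAM19, 0.805% overlap CYFIP2 on the opposite strand.

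The proximal promoters of ADAM19 and ADAMTS6 are shown with short motifs of transcription factors known from TGF-β, AP-1 and Hippo signalling. ADAM19 was called with the GC trend removed. ADAMTS6 had the largest fold change that edgeR estimated from the counts among the tested members. The 250 bases before the RefSeq start are chr5:157575776-157576025 for ADAM19 and chr5:65481921-65482170 for ADAMTS6 in GRCh38.p14, both on the minus strand and written 5′ to 3′ along the gene. Capitals mark the motifs CAGAC (SMAD type), TGANTCA (AP-1 type) and GGAATG (TEAD type), searched on both strands, and the matches shown do not overlap each other.
ADAM19: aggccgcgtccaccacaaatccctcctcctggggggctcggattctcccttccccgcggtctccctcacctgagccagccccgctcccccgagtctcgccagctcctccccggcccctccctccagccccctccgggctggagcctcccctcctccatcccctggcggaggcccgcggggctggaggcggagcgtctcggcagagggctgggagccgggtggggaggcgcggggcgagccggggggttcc
ADAMTS6: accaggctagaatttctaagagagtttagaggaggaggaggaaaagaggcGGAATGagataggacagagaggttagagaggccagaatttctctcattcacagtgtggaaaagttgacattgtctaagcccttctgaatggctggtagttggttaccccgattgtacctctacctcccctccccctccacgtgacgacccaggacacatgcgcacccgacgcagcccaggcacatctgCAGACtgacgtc
The ADAM19 window held none of these letters and the ADAMTS6 window held 1 SMAD-type and 1 TEAD-type match. Among 35116 windows of the same length, 38.0% held the SMAD-type, 6.57% the AP-1-type and 11.9% the TEAD-type motif. Of the 36 members, 25 had a window, and 11, 1 and 4 of these held the SMAD-type, AP-1-type and TEAD-type motif. Members were counted per gene, whereas the shares above are per window. ADAMTS10 had more than 1 window, with 0 and 3 SMAD-type matches, and was counted as holding that motif. A match is a run of letters and not a measured binding site.

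Other sheddases showed smaller or less even differences. ADAM10, the main protease that releases the Notch ectodomain and N-cadherin, had 161, 97.8 and 75.6 CPM in the TGF-β1 libraries, against 78.5, 56.2 and 81.2 CPM in the control libraries. TGF-β1 replicates 1 and 2 were above every control, and TGF-β1 replicate 3 was within the control range. The estimate was 1.55-fold higher (log2 0.63 ± 0.25 SE, edgeR adjusted p = 0.255), and 1.17-fold with the GC trend removed (edgeR adjusted p = 0.240). The transcripts of ADAM10 have a GC content of 40.5%, and its highest, second highest and lowest libraries were those of the AT-rich genes above. Without TGF-β1 replicate 3 ADAM10 was called (edgeR adjusted p = 0.0225), in a fit that called 1671 of 14874 genes. It was not called when the GC trend was removed as well.

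ADAM9 changed direction with the treatment of GC content. It had 368, 255 and 196 CPM in the TGF-β1 libraries, against 262, 200 and 252 CPM in the control libraries, with overlapping groups. The log2 difference was 0.20 ± 0.21 SE (edgeR adjusted p = 0.672) from the counts and -0.29 ± 0.08 SE with the GC trend removed (edgeR adjusted p = 0.0525). Its transcripts have a GC content of 38.5%, the lowest of the tested members. With the trend removed it was called as lower without TGF-β1 replicate 1 (edgeR adjusted p = 0.0445) and without TGF-β1 replicate 3 (edgeR adjusted p = 0.0431). Over all genes the first of these fits called 386 of 14718 and the second 1322 of 14874. ADAM17, which sheds tumour necrosis factor and ligands of the EGF receptor, had 33.7, 25.0 and 23.2 CPM with TGF-β1, against 31.5, 24.4 and 29.9 CPM in controls. Its log2 difference was -0.07 ± 0.19 SE (edgeR adjusted p = 0.891), and -0.37 ± 0.11 SE with the GC trend removed (edgeR adjusted p = 0.0664). Of its exon bases 13.6% overlap genes on the opposite strand, IAH1 among them, so without strand its counts are uncertain.

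ADAM15 had 122, 145 and 169 CPM in the TGF-β1 libraries, against 170, 212 and 172 CPM in the control libraries. Every TGF-β1 library was below every control, though TGF-β1 replicate 3 and control replicate 1 were nearly equal. The log2 difference was -0.35 ± 0.15 SE (edgeR adjusted p = 0.294), and -0.23 ± 0.08 SE with the GC trend removed (edgeR adjusted p = 0.128). ADAM12, meltrin alpha, is a sheddase of heparin-binding EGF and is known from cultured stellate cells as a gene that TGF-β can induce. In these libraries it had 7.41, 5.99 and 5.67 CPM with TGF-β1, against 7.78, 7.81 and 9.33 CPM in controls, with no overlap and the TGF-β1 side lower. The estimate for ADAM12 was log2 -0.38 ± 0.20 SE (edgeR adjusted p = 0.373), and its 95% interval reached from -0.82 to 0.05. ADAM8, a sheddase best known from leukocytes, had 4.10 ± 0.445 CPM with TGF-β1 and 5.01 ± 1.07 CPM in controls (SD, n = 3 each, edgeR adjusted p = 0.592).

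**Figure D3:**
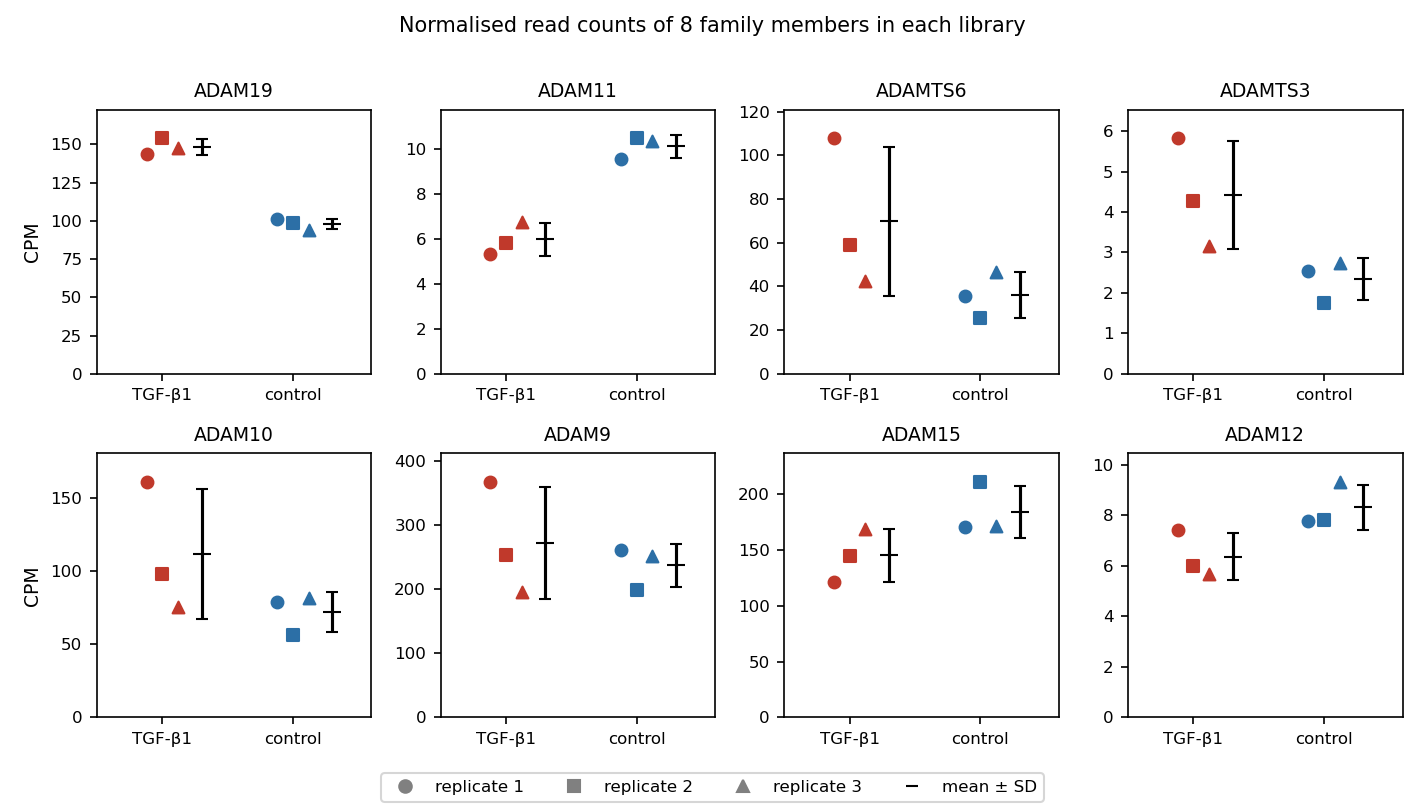
CPM of 8 members in each library (red, TGF-β1; blue, control; marker shape gives the replicate number) with the mean ± SD of 3 libraries beside the points. The groups separate in ADAM19, ADAM11, ADAMTS3, ADAM15 and ADAM12, while in ADAMTS6, ADAM10 and ADAM9 TGF-β1 replicate 1 is far above the other TGF-β1 libraries and the groups overlap.

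Members without a working active site were led by ADAM11, a membrane protein best known from neurons. The GRCh38 position of ADAM11 is chromosome 17, bases 44759031 to 44781846, plus strand, and no exon base overlaps another gene. It had 5.34, 5.81 and 6.77 CPM in the TGF-β1 libraries, against 9.54, 10.5 and 10.4 CPM in the control libraries. Every TGF-β1 library was lower than every control. The mean was 5.97 ± 0.726 CPM with TGF-β1 and 10.1 ± 0.513 CPM in controls (SD, n = 3 each), 1.70-fold lower (log2 -0.76 ± 0.19 SE, edgeR adjusted p = 0.117). With the GC trend removed ADAM11 fell 1.57-fold (edgeR adjusted p = 0.0294). This call rests on 88 to 98 counts per TGF-β1 library, against 135 to 180 counts per control library. It was lost with any library but TGF-β1 replicate 3 left out (edgeR adjusted p = 0.0276 without it, and up to 0.126 without another). DESeq2 gave an adjusted p of 0.0218.

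ADAM23 and ADAM22, which bind the secreted LGI proteins in the nervous system, showed no call. ADAM23 had 28.3 ± 2.23 CPM with TGF-β1 and 30.4 ± 3.39 CPM in controls (SD, n = 3 each, edgeR adjusted p = 0.778), and ADAM22 had 3.58 ± 0.329 CPM with TGF-β1 and 2.61 ± 1.18 CPM in controls (edgeR adjusted p = 0.506). ADAM32, the 4th gene of this group in the table, had 15, 11 and 1 counts with TGF-β1 and 5, 3 and 3 counts in controls and was not tested.

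Among the tested secreted proteases, ADAMTS6 and ADAMTS3 had the largest estimated differences. ADAMTS6, which acts on fibrillin microfibrils, is found in GRCh38 at chromosome 5, bases 65148736 to 65481920, minus strand. It had 108, 59.1 and 42.5 CPM in the TGF-β1 libraries, against 35.5, 25.6 and 46.6 CPM in the control libraries. The values differed widely among the TGF-β1 libraries, and TGF-β1 replicate 3 was below control replicate 3. The estimate was 1.95-fold higher (log2 0.96 ± 0.31 SE, edgeR adjusted p = 0.190), and 1.63-fold with the GC trend removed (log2 0.70 ± 0.18 SE, edgeR adjusted p = 0.0519). Its transcripts have a GC content of 42.9%, and TGF-β1 replicates 1 and 2 were its highest and control replicate 2 its lowest, as for the AT-rich genes. Without TGF-β1 replicate 3 it was called from the counts (edgeR adjusted p = 0.0132) and with the trend removed (edgeR adjusted p = 0.0154). Over all genes these fits called 1671 and 1322 of 14874. With the trend removed it was also called without control replicate 3 (edgeR adjusted p = 0.0323), where 506 of 14831 genes were. Its relative ADAMTS10 had 3.32 ± 0.176 CPM with TGF-β1 and 3.09 ± 0.618 CPM in controls (SD, n = 3 each, edgeR adjusted p = 0.869).

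The procollagen N-proteinases ADAMTS2, ADAMTS3 and ADAMTS14, which remove the amino-terminal propeptides of fibrillar procollagens, were all under 1 FPKM. ADAMTS3, also an activator of the lymphatic growth factor VEGF-C, had 5.83, 4.27 and 3.16 CPM in the TGF-β1 libraries, against 2.55, 1.75 and 2.74 CPM in the control libraries. All TGF-β1 libraries were higher than all controls, by a narrow margin for TGF-β1 replicate 3. These values rest on 43 to 96 counts per TGF-β1 library and 30 to 45 counts per control library. The difference was 1.90-fold (log2 0.92 ± 0.29 SE, edgeR adjusted p = 0.172), and 1.65-fold with the GC trend removed (edgeR adjusted p = 0.0822). Without TGF-β1 replicate 3 it was called from the counts (edgeR adjusted p = 0.0245) and with the trend removed (edgeR adjusted p = 0.0442). Over all genes these fits called 1671 and 1322 of 14874. ADAMTS2 had 4.13 ± 0.352 CPM with TGF-β1 and 3.74 ± 0.581 CPM in controls (SD, n = 3 each, edgeR adjusted p = 0.785). ADAMTS14 had 1.66 ± 0.164 CPM with TGF-β1 and 1.92 ± 0.207 CPM in controls (edgeR adjusted p = 0.745).

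None of the 5 tested proteoglycan-cutting members was called with or without the GC trend, and none had groups that did not overlap. ADAMTS1, by far the highest of them, had 7.26 ± 0.580 FPKM with TGF-β1 and 6.38 ± 1.04 FPKM in controls (SD, n = 3 each). Its log2 difference was 0.17 ± 0.15 SE (95% interval -0.16 to 0.50, edgeR adjusted p = 0.623). ADAMTS4, ADAMTS5, ADAMTS9 and ADAMTS15 were all under 1 FPKM, with log2 differences of -0.19, 0.58, 0.45 and -0.24 and edgeR adjusted p from 0.446 to 0.655. ADAMTS5, a major aggrecanase of cartilage, had only 32, 36 and 15 counts with TGF-β1 and 13, 21 and 22 counts in controls. ADAMTS1 and ADAMTS5 are neighbours on the minus strand of chromosome 21, at 26835747 to 26845409 and at 26917912 to 26966513 of GRCh38.

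ADAMTS12 had 389, 307 and 333 CPM in the TGF-β1 libraries, against 283, 273 and 324 CPM in the control libraries. TGF-β1 replicate 2 was below control replicate 3, and the log2 difference was 0.23 ± 0.13 SE (edgeR adjusted p = 0.442; 0.152 with the GC trend removed). ADAMTS7 had 75.2, 78.3 and 76.7 CPM in the TGF-β1 libraries, against 65.9, 76.3 and 65.6 CPM in the control libraries. Its log2 difference was 0.15 ± 0.13 SE (edgeR adjusted p = 0.610; 0.115 with the GC trend removed). The near-copies ADAMTS7P1, ADAMTS7P3 and ADAMTS7P4 had at most 17 counts in a library, against at least 932 for ADAMTS7, and reads shared with these copies make its counts uncertain. ADAMTS13, which cuts von Willebrand factor, had 2.84 ± 1.02 CPM with TGF-β1 and 3.32 ± 0.508 CPM in controls (SD, n = 3 each, edgeR adjusted p = 0.755). ADAMTS16 had 22.1 ± 2.32 CPM with TGF-β1 and 24.2 ± 3.28 CPM in controls (edgeR adjusted p = 0.749).

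The 3 tested ADAMTS-like genes all had negative estimates and none was called. ADAMTSL1, or punctin, had 56.2, 55.9 and 69.0 CPM in the TGF-β1 libraries, against 71.6, 76.8 and 75.2 CPM in the control libraries. The groups did not overlap, and the log2 difference was -0.30 ± 0.14 SE (edgeR adjusted p = 0.303; 0.134 with the GC trend removed). ADAMTSL4, which binds fibrillin microfibrils, had 4.68, 5.10 and 6.18 CPM in the TGF-β1 libraries, against 10.3, 9.68 and 5.30 CPM in the control libraries. Control replicate 3 stood within the TGF-β1 range, and with all libraries the log2 difference was -0.67 ± 0.26 SE (edgeR adjusted p = 0.251), and -0.54 with the GC trend removed (edgeR adjusted p = 0.166). Without that control it was -0.92 and not called (edgeR adjusted p = 0.182), and -0.75 and called with the GC trend removed as well (edgeR adjusted p = 0.0388). The latter fit called 506 of 14831 genes. Of its exon bases 14.4% overlap genes on the opposite strand, ADAMTSL4-AS1 among them, which makes its counts uncertain without strand, and ADAMTSL4-AS1 itself was given at most 2 counts in a library. ADAMTSL5 had 5.26 ± 0.854 CPM with TGF-β1 and 6.57 ± 1.33 CPM in controls (SD, n = 3 each, edgeR adjusted p = 0.512).

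Across the family the estimates were related to base composition. Of the 12 tested members with a transcript GC content under 50%, 9 had a positive and 3 a negative log2 fold change, with a median of 0.34. Of the 15 members at or above 50%, 4 had a positive and 11 a negative one, with a median of -0.21. With the GC trend removed this split largely stayed. Under 50%, 8 estimates were then positive and 4 negative (median 0.19), and at or above 50%, 4 were positive and 11 negative (median -0.12). Spearman's rho of GC content with log2 fold change over the 27 members was -0.64, and -0.18 with the GC trend removed. These genes share the same 6 libraries, so the values are a description. ADAM19 (transcript GC content 55.1%), ADAMTS2, ADAMTS7 and ADAMTS10 were the 4 members at or above 50% with a positive estimate, and theirs was positive in both fits.

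**Figure D4:**
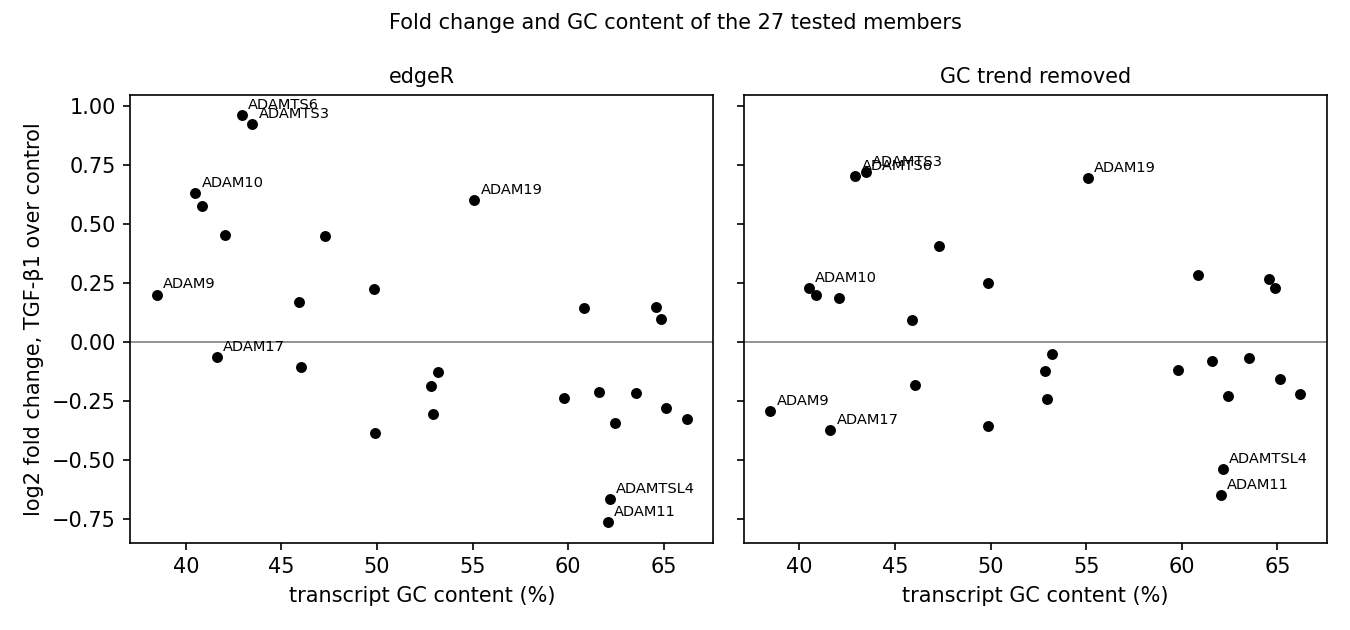
Log2 fold change (TGF-β1 over control) against the GC content of the transcripts for the 27 tested members, from edgeR (left) and with the GC trend of the libraries removed (right). On the left most genes under 50% GC are above 0 and most of the others below it (rho -0.64). On the right that split remains, with 8 of 12 above 0 and 11 of 15 below it. The rank correlation is weaker there (rho -0.18), and ADAM19, ADAMTS6 and ADAMTS3 are near 0.70.

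Proteins that control the family were read from the same fit, in a list that also holds the related genes PAPLN and THSD4. Of 23 listed regulators 21 were in the table and 20 were tested, and edgeR called 0 of them with or without the GC trend, as did DESeq2 and limma. At an unadjusted edgeR p under 0.05, 1 of the 20 passed, against 15.6% of all tested genes. With the GC trend removed 4 of the 20 passed, against 20.8% of all tested genes. The 1 from the counts was the iRhom gene RHBDF1, whose product carries ADAM17 to the cell surface. RHBDF1 had 91.9 ± 5.94 CPM with TGF-β1 and 116.5 ± 12.1 CPM in controls (SD, n = 3 each, edgeR adjusted p = 0.236). The metalloproteinase inhibitor genes TIMP1 and TIMP2 were abundant, with 425.6 ± 66.5 and 146.9 ± 9.24 FPKM with TGF-β1 and 376.7 ± 27.2 and 140.6 ± 4.80 FPKM in controls. TIMP3, the main natural inhibitor of ADAM17 and the aggrecanases, had 12.4 ± 0.733 FPKM with TGF-β1 and 13.9 ± 1.37 FPKM in controls (edgeR adjusted p = 0.555). RECK, a membrane-anchored inhibitor, had 2.02 ± 0.161 FPKM with TGF-β1 and 1.95 ± 0.159 FPKM in controls (edgeR adjusted p = 0.938). All 6 tetraspanins that accompany ADAM10 were tested, with log2 differences from -0.19 to -0.08 and no call, and with the GC trend removed TSPAN15 turned to 1.02-fold higher. FURIN, which removes the inhibitory prodomain of these proteases, had a log2 difference of 0.06 (edgeR adjusted p = 0.860).

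Among the known substrates, 4 matrix genes rose. Of 48 listed substrates 47 were in the table and 38 were tested, and edgeR called 4 as higher and 1 as lower, against 0.187% of all tested genes called higher and 0.18% called lower. Their median log2 fold change was -0.02, against 0.01 over all tested genes. Without TGF-β1 replicate 2 or control replicate 1 edgeR called 1 substrate, and without TGF-β1 replicate 3 it called 10. Over all genes these fits called 4 of 14772, 13 of 14858 and 1671 of 14874. The list was put together with results on some of these genes known, so its count is no independent evidence. VCAN, the proteoglycan versican and a substrate of ADAMTS1, ADAMTS5 and ADAMTS9, rose to 80.8 ± 29.6 CPM with TGF-β1, against 21.3 ± 3.37 CPM in controls (edgeR adjusted p = 0.00726). COL3A1 and COL5A1, procollagens with a propeptide that N-proteinases remove, rose 1.64-fold and 1.65-fold (edgeR adjusted p = 0.0350 and 0.0418). COL1A1 had 1770 ± 154.8 CPM with TGF-β1 and 1331 ± 99.7 CPM in controls and passed edgeR with the GC trend removed (adjusted p = 0.00497) but not without that (adjusted p = 0.159). The other calls were FN1, the matrix protein fibronectin, which was higher, and TNFRSF1B, a receptor for tumour necrosis factor that is shed from the cell surface, which was lower.

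With the GC trend removed, 7 substrates rose and 4 fell among the 38, against 1.87% of all tested genes called higher and 1.8% called lower. CDH2, or N-cadherin, an ADAM10 substrate, rose 1.35-fold (edgeR adjusted p = 0.0119). PTPRK, a receptor phosphatase cut by ADAM10, rose 1.53-fold (edgeR adjusted p = 0.0110). AREG, the EGF receptor ligand amphiregulin shed by ADAM17, fell 1.86-fold (edgeR adjusted p = 0.0457). L1CAM fell 1.25-fold (edgeR adjusted p = 0.0477) and LOX fell 1.39-fold (edgeR adjusted p = 0.0214). None of these 5 passed edgeR without the removal, where their adjusted p ran from 0.117 to 0.583. From the counts the estimates of CDH2 and PTPRK were larger, 1.51-fold and 1.66-fold higher, and DESeq2 called both without the removal (adjusted p = 0.0189 and 0.0182). Whether levels of the substrates are tied to those of the proteases was not tested.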

How the data were processed

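Libraries of LX-2 cells were made with the NEBNext Ultra kit, which does not mark strand, per the labels. The submitters' processing notes name HISAT2, HTSeq 0.13.5 and GRCh38. The authors deposited raw counts per gene and FPKM values for each library, in 1 table of 27830 genes. From the deposited counts, edgeR 4.0.16 (R 4.3.3) with TMM factors, its own filter on low counts and the robust quasi-likelihood test gave fold changes and Benjamini-Hochberg adjusted p over 14463 genes. CPM of single genes used the summed counts of the tested genes in each library times its TMM factor. Marker sums and the detection floor used the total counts (a count of 3 is 0.170 to 0.216 CPM). All levels between genes use the deposited FPKM. The GC trend was taken out as an offset, a loess curve (span 0.5) of each library's deviations on transcript GC content from GENCODE 29, known for 26968 genes. DESeq2 1.42.0 and limma 3.58.1 (on voom values and on log2 FPKM with a pseudocount of 1 or 0.1) served as alternatives, and the scripts were tested on simulated data. Promoter windows come from RefSeq (GRCh38.p14).

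The family, the regulator, substrate and marker lists and the tests were chosen with earlier results of these data known. Members that passed the filter are named with values, with those per library for called members, the 5 highest and others singled out after their values were seen. No pair of libraries of a group agreed within sampling noise. ADAM2, ADAM7, ADAM18, ADAM29, ADAM30, ADAMTS8, ADAMTS18 and ADAMTSL2, and TIMP4 and ADAMDEC1 among the regulators, are not analysed here. ADAMTSL6 carries the name THSD4 and so falls outside the name rule. It was tested with the regulators (log2 difference -0.07, edgeR adjusted p = 0.846).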

Additional observations from a re-analysis of the deposited data

How the results depend on the processing

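Over all genes edgeR called 53 (27 higher, 26 lower), against 111 with upper quartile factors (57 higher, 54 lower), 1240 with no filter on low counts (1071 higher, 169 lower), 532 with the GC trend removed (271 higher, 261 lower) and 615 by DESeq2 (493 higher, 122 lower). With 1 library left out, with or without the GC trend, the count ran from 4 to 1671. In the family, where 0 of 27 were called, 1 was called with total counts (ADAM19), a setting that called 47 of 14463 genes. With no filter 5 of 36 members were called, beside 1240 of 27830 genes. The family count was 2 with the GC trend removed and 2 by DESeq2, and 0 to 8 with 1 library left out. Without TGF-β1 replicate 3 these were ADAM10, ADAM11, ADAM19, ADAMTS3 and ADAMTS6, and with the GC trend removed as well ADAM9, ADAM11, ADAM15, ADAM17, ADAM19, ADAMTS3, ADAMTS6 and ADAMTS7. Substrate calls went to 10 with no filter and 11 with the GC trend removed, and ran from 1 to 15 with 1 library left out; regulator calls ran from 0 to 1. Taking the count filter as the criterion, 27 members were expressed in place of 15. The causes were not tested.

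The replicate numbers are shared by the groups but same-numbered samples did not deviate together (correlations 0.176, 0.09997 and -0.355), so the pairing is not used. A replicate block gave 527 calls over all genes (429 higher, 98 lower) and 2 in the family (ADAM19 and ADAMTS6), and together with the GC trend removed 530 over all genes (268 higher, 262 lower), 3 in the family and 10 substrates.

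The log2 fold change of ADAM9 turned to -0.29 with the GC trend removed and -0.30 with the replicate block as well, and ran from -0.32 to 0.39 with 1 library left out. The sign also turned for ADAM17 (-0.42 to 0.035), ADAM8 (-0.45 to 0.015), ADAMTS10 (-0.0050 to 0.30), ADAMTS13 (-0.51 to 0.20), ADAMTS15 (-0.33 to 0.050), ADAMTS16 (-0.24 to 0.070) and ADAMTS5 (-0.013 to 0.80) with 1 library left out, in some only with the GC trend removed. Of the other fold changes of members, 593 kept direction and side of the threshold and 35 passed it only under the alternative. Counts of under 50 in every library limit ADAMTS5, ADAMTS9 and ADAMTS14. Some libraries were also under 50 for ADAMTS3 (all controls among them), ADAM22, ADAMTS10, ADAMTS13 and ADAMTS15.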

Other observations

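ADAMTS17, a relative of ADAMTS19 that failed the filter on low counts, had 1, 3 and 2 counts with TGF-β1 and 7, 8 and 10 counts in controls, so the groups did not overlap, and it was not tested. ADAM21 had 2, 6 and 1 counts with TGF-β1 and 2, 5 and 7 counts in controls. ADAM33, known as an asthma susceptibility gene of airway mesenchyme, had 1, 0 and 1 counts with TGF-β1 and 0, 2 and 3 counts in controls. ADAM20, ADAM28, ADAMTS19, ADAMTS20 and ADAMTSL3 had 0 to 2 counts in every library.

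The place of ADAM9 in the order of levels depends on the gene length. The deposited FPKM of ADAM9 corresponds to a length of 17705 bases, against 6913 exon bases in GENCODE 29, a ratio of 2.56, whereas the other 35 members had ratios from 0.977 to 1.22. With the GENCODE length, an alternative added after seeing the data, ADAM9 would stand at 37.0 FPKM and ADAMTS12 at 32.5 FPKM. The fold changes do not use the length.

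Summed over their members, the microfibril-associated ADAMTS6 and ADAMTS10 had 8.81 ± 4.10 FPKM with TGF-β1 and 4.71 ± 1.21 FPKM in controls (SD, n = 3 each). Most of this was ADAMTS6 (8.22 and 4.17 FPKM). The groups overlapped, with 5.41 FPKM in TGF-β1 replicate 3 and 5.96 FPKM in control replicate 3. The ADAMTS-like genes had 6.79 ± 0.754 FPKM with TGF-β1 and 8.59 ± 0.511 FPKM in controls. Sums of the other role groups are not given. The whole family summed to 150 ± 13.9 FPKM with TGF-β1 and 136 ± 6.03 FPKM in controls. These sums were not tested.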
